A study of Mus musculus with 2 samples.

Results

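The genes described here are the replication-dependent histone genes of the mouse, taken as every gene of GENCODE release M21 whose symbol begins with Hist1, Hist2, Hist3 or Hist4. There were 70 of them among 55413 annotated genes, made up of 67 protein-coding genes and 3 pseudogenes (Hist3h2bb-ps, Hist1h2aj and Hist1h2al). By the histone type in the symbol, 6 are H1, 20 H2A, 19 H2B, 12 H3 and 13 H4 members. The H2A count includes the pseudogenes Hist1h2aj and Hist1h2al, and the H2B count includes Hist3h2bb-ps. Chromatin accessibility was mapped by ATAC-seq, in which a transposase inserts into open DNA, in 2 libraries of mouse regulatory T cells that form 1 group. The labels give primary cells of strain C57BL/6NJ, no treatment, and neither age nor sex, and they link a CD4 T cell differentiation protocol that was not read. Entry names in the deposited lists give 72 hrs and hold the words ASTARR and insert, which the sources used here do not explain, so plain ATAC-seq was not established. Both libraries carry the same donor label, so the 2 lists may be repeats from a single mouse or culture.

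Replication-dependent histone genes supply the bulk of the core and linker histones that package newly made DNA. They are transcribed in S phase from the nuclear histone locus body, where NPAT and its partner FLASH act on them. Their short, mostly intronless transcripts carry no poly(A) tail and end instead in a stem-loop that the protein SLBP binds. The genes lie in clusters, where H2A and H2B genes often stand head to head and share the DNA between their starts.

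Promoter windows of 7 members are shown because they are the sequences that the regions below cover or miss. They run from 250 bases before to 50 bases after the RefSeq start (GRCm38.p6, the mm10 build), and 62 of the 70 members had such a window. Capitals mark, on either strand, the TATA box (TATAAA), the CCAAT box bound by NF-Y (CCAAT), the octamer bound by OCT1 (ATTTGCAT), the H1 box (AAACACA) and the core of the H4 element bound by HINFP (GTCCG). Hist1h1t (H1f6) and Hist1h2aa (H2ac1) encode testis histones. Hist1h2ao (H2ac23), Hist3h2ba (H2bu2), Hist1h3e (H3c6) and Hist1h4m (H4c17) had the strongest region of their type. Hist1h1e (H1f4), a somatic H1 gene, was chosen after its values were seen. The windows of Hist1h2bq and Hist1h2ba overlap those of Hist1h2ao and Hist1h2aa on the other strand and are not repeated.
Hist1h1t, chr13:23695561-23695860, plus strand: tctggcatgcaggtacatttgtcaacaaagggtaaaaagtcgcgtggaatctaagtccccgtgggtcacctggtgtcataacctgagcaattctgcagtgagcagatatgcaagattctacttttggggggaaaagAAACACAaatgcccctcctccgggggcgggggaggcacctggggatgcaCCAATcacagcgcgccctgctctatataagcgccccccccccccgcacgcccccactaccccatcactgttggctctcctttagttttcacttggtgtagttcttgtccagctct
Hist1h1e, chr13:23622509-23622808, minus strand: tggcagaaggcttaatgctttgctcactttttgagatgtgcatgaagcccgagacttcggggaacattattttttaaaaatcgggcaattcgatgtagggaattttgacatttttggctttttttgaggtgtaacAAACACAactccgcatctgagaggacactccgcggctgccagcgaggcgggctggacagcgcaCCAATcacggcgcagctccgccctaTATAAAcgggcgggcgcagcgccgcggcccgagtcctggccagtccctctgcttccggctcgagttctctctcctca
Hist1h2ao, chr13:21810117-21810416, plus strand: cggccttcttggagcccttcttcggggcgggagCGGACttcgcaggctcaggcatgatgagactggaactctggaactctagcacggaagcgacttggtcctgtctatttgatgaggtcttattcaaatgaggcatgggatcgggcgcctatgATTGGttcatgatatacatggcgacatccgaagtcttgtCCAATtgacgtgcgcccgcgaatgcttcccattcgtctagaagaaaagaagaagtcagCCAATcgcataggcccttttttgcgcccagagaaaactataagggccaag
Hist1h2aa, chr13:23934187-23934486, plus strand: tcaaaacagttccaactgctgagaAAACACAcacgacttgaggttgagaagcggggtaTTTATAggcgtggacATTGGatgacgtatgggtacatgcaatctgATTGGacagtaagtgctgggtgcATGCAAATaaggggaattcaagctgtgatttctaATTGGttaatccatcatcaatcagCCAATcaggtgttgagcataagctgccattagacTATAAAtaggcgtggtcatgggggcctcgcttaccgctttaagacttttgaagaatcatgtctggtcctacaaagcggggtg
Hist3h2ba, chr11:58948661-58948960, plus strand: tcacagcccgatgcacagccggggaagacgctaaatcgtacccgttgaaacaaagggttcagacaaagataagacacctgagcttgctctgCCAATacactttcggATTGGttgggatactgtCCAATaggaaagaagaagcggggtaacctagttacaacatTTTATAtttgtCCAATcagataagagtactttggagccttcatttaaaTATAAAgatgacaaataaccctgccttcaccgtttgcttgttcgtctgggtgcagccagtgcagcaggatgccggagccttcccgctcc
Hist1h3e, chr13:23562336-23562635, minus strand: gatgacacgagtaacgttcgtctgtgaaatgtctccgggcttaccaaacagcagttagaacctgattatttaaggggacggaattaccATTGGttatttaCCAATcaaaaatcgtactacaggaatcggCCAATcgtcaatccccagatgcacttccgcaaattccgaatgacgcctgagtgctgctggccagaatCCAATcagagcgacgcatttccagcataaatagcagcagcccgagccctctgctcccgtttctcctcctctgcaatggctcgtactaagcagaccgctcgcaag
Hist1h4m, chr13:21811496-21811795, plus strand: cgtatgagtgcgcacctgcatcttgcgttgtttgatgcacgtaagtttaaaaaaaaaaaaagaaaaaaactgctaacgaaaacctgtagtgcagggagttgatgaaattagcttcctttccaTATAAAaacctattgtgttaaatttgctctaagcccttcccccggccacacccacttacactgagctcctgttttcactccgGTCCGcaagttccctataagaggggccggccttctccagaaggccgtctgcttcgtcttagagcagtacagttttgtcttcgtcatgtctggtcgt

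The motifs in these windows are given by histone type. The CCAAT box was present in 6 of 6 H1, 18 of 18 H2A, 16 of 16 H2B and 10 of 10 H3 windows, and in 3 of 12 H4 windows. That came to 85.5% of the 62 member windows, against 37.4% of all 32851 RefSeq promoter windows. GTCCG was present in 12 of 12 H4 windows, at position -46 from the start in Hist1h4m. It was also present in 8 of 18 H2A, 5 of 16 H2B, 1 of 10 H3 and 0 of 6 H1 windows, and so in 41.9% of all member windows, against 23.4% of all promoters. Some of these matches lie within a gene. In Hist1h2bq, Hist1h2br, Hist1h2bp and Hist1h2bf the match stood past the start, at positions 45, 45, 44 and 34. The match in the Hist1h2ao window, at -217, lies in the body of its partner Hist1h2bq. The H1 box stood in 5 of 6 H1, 2 of 18 H2A and 2 of 16 H2B windows and in none of the H3 or H4 windows, or 14.5% of members against 7.18% of all promoters. Hist1h1t had it at position -114 and Hist1h1e at position -115. The octamer was found in 7 of 18 H2A and 6 of 16 H2B windows and in none of the other types, or 21% of members against 1.74% of all promoters. Head-to-head H2A and H2B windows overlap and so count some of the same letters. TATAAA was present in 56.5% of member windows, against 13.6% of all promoters. Of the forms of the E2F site that were sought, TTTCGCGC was present in 14.5% of members and 0.323% of all promoters, and TTTGGCGC in 0 of the 62 member windows and 0.514% of all promoters. The GC box, GGGCGG, was present in 37.1% of member windows and 35.7% of all promoters. The median GC content was 45.3% in member windows, from 33.3% to 72.7%, against 52.7% in all promoters. The highest GC content, 72.7%, belonged to Hist2h3c1 and Hist2h3c2. A match is a description of letters only.

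The 3′ stem-loop is shown because it sets these genes apart from nearly all others in sequence, with capitals on its loop. It was sought by its consensus, paired arms that begin with GG and close with CC around a T-rich loop, on the gene's own strand, from the gene body to 200 bases past its end, and was found in 64 of 70 members (91.4%).
Hist1h1e and 40 other members carry this form: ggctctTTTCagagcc
Hist1h3e, Hist1h1t, Hist1h2ba and 6 other members carry this form: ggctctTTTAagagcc
Hist1h4m and 7 other members carry this form: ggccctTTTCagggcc
A further 3 forms occurred in 2 members each. The 6 members without a match were Hist1h2an, Hist1h2aj, Hist1h2al, Hist2h2be, Hist1h3g and Hist1h4a, of which Hist1h2aj and Hist1h2al are pseudogenes. Within 200 bases to either side of the annotated gene end, 41 of 70 members (58.6%) had the element, against 4 of 21871 other protein-coding genes (0.0183%).

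The 2 deposited lists held 68832 and 78178 accessible regions on chromosomes 1 to 19, X and Y in replicate 1 and replicate 2, each called on its own library. The lists hold no read counts, so the depth is unknown and no counting interval can be given. In a bulk library, a region open in few cells and a region weakly open in many cannot be told apart. The labels do not state what share of the cells was in S phase. The cell type label was checked against markers. All 4 regulatory T cell markers (Foxp3, Il2ra, Ctla4, Ikzf2) and all 4 T cell markers (Cd3e, Cd3g, Cd4, Cd28) had a region within 1 kb in both replicates. In each of these marker sets 3 of 4 had their start inside a region in both replicates. The shares over all protein-coding genes were 70.8% for regions and 53.4% for starts. Of the B cell markers, Ms4a1 had none and Cd79a and Pax5 had one, and the starts of these genes lay in no region in both replicates. Of the myeloid markers, Lyz2 had none, Csf1r, Itgam and Cd14 had one, and 1 of 4 starts, that of Cd14, lay in a region. Of the germ line markers, Ddx4 had a region in both replicates, Prm1 in replicate 1 alone, and Tnp1 and Sycp1 had none. By mean signal percentile of the strongest region, Foxp3 stood at 51.0, Il2ra at 47.7, Ctla4 at 59.5 and Ikzf2 at 91.5. The T cell markers ran from 54.2 (Cd4) to 72.3 (Cd3e). Of the other markers, Pax5 (91.5), Itgam (93.6) and Ddx4 (88.0) stood high, and Cd79a (10.9), Csf1r (40.2) and Cd14 (69.1) lower. The markers thus gave no clear separation by signal. What part other cells play in the regions at histone genes was not tested.

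Nearly all histone genes lay in or beside accessible chromatin. A region within 1 kb of the gene was present for 65 of 70 members in replicate 1, 66 in replicate 2 and 65 in both (92.9%), against 70.8% of all 21938 protein-coding genes. The annotated start itself lay inside a region in both replicates for 56 of 70 members (80.0%), against 53.4% of all protein-coding genes. Among the 67 protein-coding members these counts were 62 (92.5%) and 53 (79.1%). Histone genes are short, with a median length of 532 bp from the start to the end of the annotated gene, against 17425 bp for all protein-coding genes. Among members of at most 1000 bp, 48 of 51 (94.1%) had a region within 1 kb, against 12.2% of the 670 other protein-coding genes of that length. Their starts lay in a region in 42 of 51 (82.4%), against 9.25% of the other short genes. The whole gene body, from start to end, lay inside 1 region in both replicates in 35 of 51 (68.6%), against 5.07% of the other short genes and 9.19% of all 718 short protein-coding genes, members included. These shares compare genes of like length and nothing else. The 51 short members include the pseudogenes, whereas the other short genes are all protein-coding.

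All H1, H3 and H4 members had a region within 1 kb in both replicates (6 of 6, 12 of 12 and 13 of 13). Among H2A genes 18 of 20 did, and among H2B genes 16 of 19. The share over all protein-coding genes was 70.8%. Starts lay in a region in both replicates for 4 of 6 H1, 16 of 20 H2A, 16 of 19 H2B, 10 of 12 H3 and 10 of 13 H4 genes. The share over all protein-coding starts was 53.4%. The types thus differed by a few genes each, and each gene missing from these counts is named below. Among the 50000 strongest regions of each list by signal, 5 of 6 H1, 17 of 20 H2A and 15 of 19 H2B genes had a region. At that setting 9 of 12 H3 and 8 of 13 H4 genes (61.5%) did, against 66.8% of all protein-coding genes.

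The regions at histone genes were wide and of middling height. Regions that held a histone gene start numbered 37 in each replicate. Their median width was 1606 bp in replicate 1 and 1722 bp in replicate 2, against 1221 and 1284 bp for regions holding any protein-coding start and 632 and 635 bp for all regions. Their height, the deposited signal, has no stated scale and is given as a percentile within its own list. By that measure their median was 52.1 and 58.3, against 82.4 and 83.4 for regions at any protein-coding start. Ranked by the deposited -log10 q the order was the other way round, with median percentiles of 94 and 94.9 at histone gene starts, against 87.7 and 88.8 at any protein-coding start. The median histone region thus lay below the median promoter region in signal and above it in -log10 q.

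**Figure D1:**
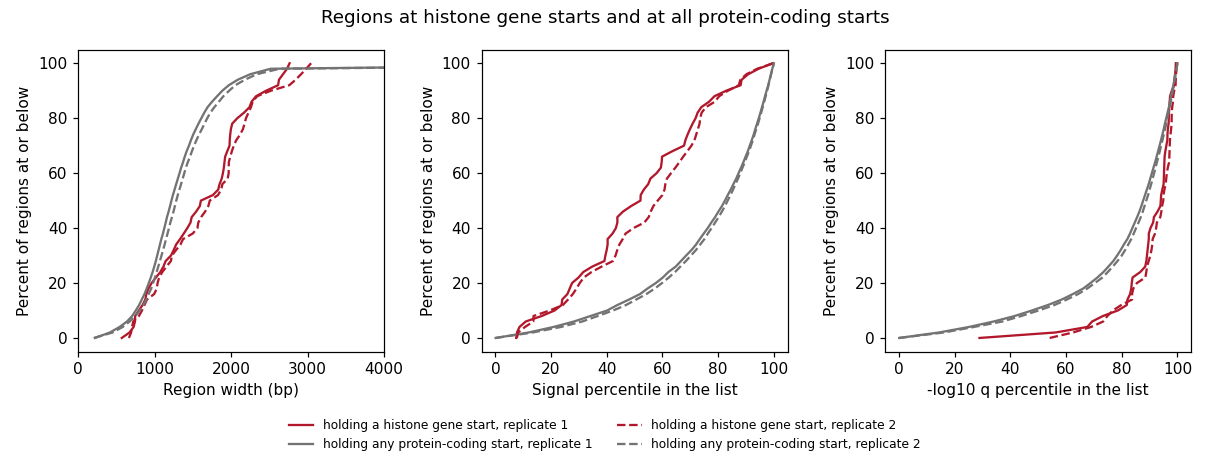
Cumulative percent of regions at or below each width in bp (left; the few widest regions lie off the axis), signal percentile (middle) and -log10 q percentile (right), for regions holding a histone gene start (red, 37 per replicate) and regions holding any protein-coding start (grey), with replicate 1 solid and replicate 2 dashed. The red curves lie to the right of the grey ones for width and -log10 q over most of their length, and to the left for signal, with medians of 52.1 and 58.3 against 82.4 and 83.4.

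Several histone genes often shared a region. Of the 37 regions with a member start, 17 (45.9%) held at least 2 member starts in each replicate. Among regions with any protein-coding start, 11.2% in replicate 1 and 11% in replicate 2 held at least 2. Member starts include those of the pseudogenes, whereas these last shares count protein-coding starts alone. Regions with 3 member starts numbered 2 in each replicate. On chromosome 13 the region chr13:21715644-21718256 of replicate 1 held the starts of Hist1h2bl, Hist1h2ai and Hist1h3h. On chromosome 3 the region chr3:96219296-96221924 held those of Hist2h2ab, Hist2h2ac and Hist2h2be. Genes that share a region have the same signal by construction, so members are not independent observations.

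The replicates gave closely similar rankings. Of 48 regions at members in replicate 1 and 49 in replicate 2, 48 overlapped between the lists. Across the 65 members with a region in both, the Spearman correlation of signal percentiles was 0.932, a description over genes that share regions and the donor label. The median absolute difference between replicates was 2.0 percentile points. The largest was 48.2 points, at Hist2h3c1. There, the neighbouring region at Hist2h2aa1 came within 1 kb in replicate 2 and was taken as the strongest. The summits of the strongest region lay a median of 1 bp apart, and for 42 of 65 members they lay within 20 bp.

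**Figure D2:**
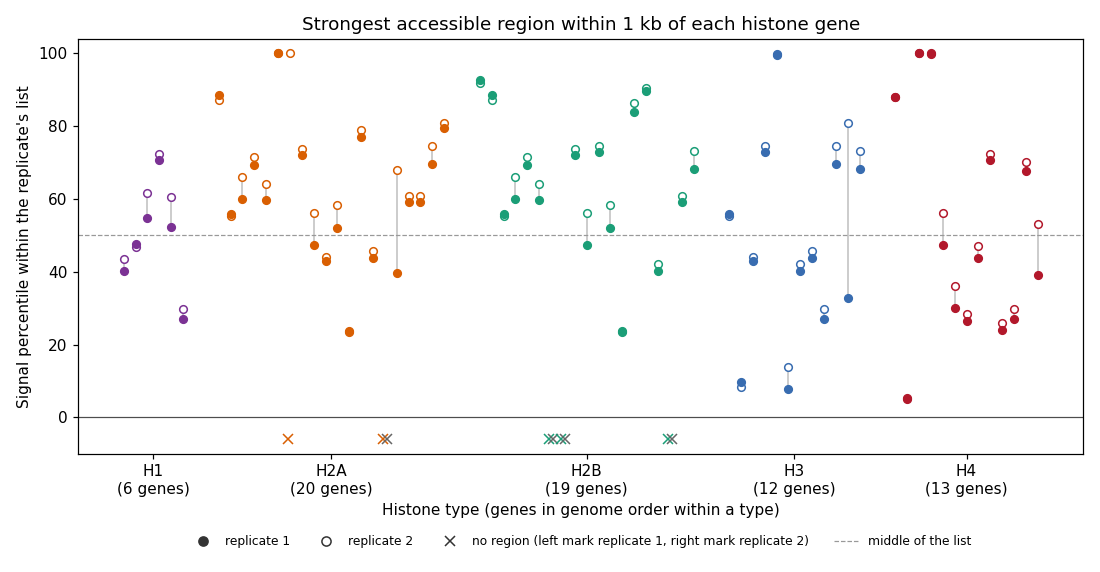
Signal percentile of the strongest region within 1 kb of each histone gene in replicate 1 (filled) and replicate 2 (open), by histone type, with crosses below 0 for genes with no region. Hist1h4m, Hist1h4n and Hist1h3e sit at 99.6 or above in both replicates and Hist1h4k at about 5, and the long vertical line in H3 is Hist2h3c1.

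The linker histone H1 genes encode the proteins that bind DNA where it enters and leaves the nucleosome. Hist1h1t, the testis-specific H1, had the highest percentile of the 6, with a signal of 9.38 and 9.26 in replicates 1 and 2 (percentiles 70.7 and 72.4). That region did not touch the gene. It began 801 and 799 bp past the gene's end and held the start of Hist1h4c, the neighbouring H4 gene, and the start of Hist1h1t lay in no region. The somatic H1 genes each had a region of their own or shared one with another histone gene. Hist1h1e had a signal of 7.15 and 7.52 (percentiles 54.7 and 61.7) over 2270 and 2253 bp, which covered 92.3% of the gene in both replicates. Hist1h1c had 6.81 and 7.36 (52.2 and 60.6). Hist1h1d had 6.28 and 5.71 (47.6 and 46.9). These 3 genes lay near the middle of the lists. Hist1h1b had 5.53 and 5.34 (40.3 and 43.4). Hist1h1a was lowest, with 4.45 and 4.23 (26.9 and 29.9) at the strongest region within 1 kb, which lay over its neighbours Hist1h3a and Hist1h4a. The region at the start of Hist1h1a itself had 3.02 and 2.71 (7.47 and 7.72). The testis gene therefore ranked above the somatic genes only through a region at another gene's start.

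Hist1h1d is annotated by GENCODE over 7425 bp, and its region covered 22.0% and 21.9% of that model without reaching its start. With RefSeq starts in place of GENCODE starts, an alternative added after the data were seen, 49 of the 62 members with a promoter window had their start in a region, against 48 of the same 62 with GENCODE starts. The gene that differed was Hist1h1d. Model length matters in the same way for Hist1h2be, which spans 37455 bp in GENCODE. It had 4 regions in each replicate, and the strongest, with signal 11.9 and 12.2, lay far inside the model and not at a histone start. The region that held its annotated start, at 7.15 and 7.52, also held that of Hist1h1e. The summit of that region stood at -1295 and -184 bp from the Hist1h2be start and counts among the H2B summits below. Another region, at 6.31 and 5.69 (percentiles 47.7 and 46.8), covered the stem-loop of Hist1h2be.

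H2A and H2B form the dimers that flank the central tetramer of the nucleosome, and their genes stood mostly in head-to-head pairs. There were 15 head-to-head pairs of members with starts up to 1 kb apart, of which 14 joined an H2A to an H2B gene, 173 to 306 bp apart, and 1 joined Hist1h2bh to Hist1h3f, 660 bp apart. A single region held both starts in both replicates in 12 of 15 pairs, against 91.0% of the 741 such pairs among all protein-coding genes. The sets differ, since the joined pairs Hist3h2bb-ps with Hist3h2a and Hist1h2aj with Hist1h2bm each hold a pseudogene. The pairs not joined were Hist1h2bq with Hist1h2ao (268 bp apart), Hist1h2ap with Hist1h2br (236 bp) and Hist1h2ba with Hist1h2aa (306 bp). In each of those 3 pairs neither start lay in a region in either replicate.

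Among H2A genes the highest was Hist1h2ao, with a signal of 30.4 and 33.4 (percentile 100 in both). Its region began 847 and 917 bp past the end of the gene, and it lies over the adjacent Hist1h4m. Hist3h2a followed, at 12.9 and 12.4 (88.5 and 87.3), in a region shared with its head-to-head partner, the H2B pseudogene Hist3h2bb-ps. Hist2h2aa1 came next, at 10.9 in both replicates (79.5 and 81.0). The lowest H2A genes with a region were Hist1h2ad, at 4.2 and 3.78 (23.7 and 23.4), and Hist1h2af, at 5.80 and 5.47 (42.9 and 44.1). The strongest region of Hist1h2af lay at the start of its neighbour Hist1h3g. The region that held the start of Hist1h2af itself had 3.78 and 3.13 (17.6 and 13.6), lower than that of Hist1h2ad. Of the 3 highest H2A genes, Hist3h2a and Hist2h2aa1 had their own start in a region.

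Among H2B genes Hist3h2ba was highest, at 14.1 and 13.7 (92.6 and 91.8), in a region chr11:58948282-58949228 in replicate 1 that covered its start and the CCAAT boxes shown above. Hist1h2bc had 13.2 and 13.3 (89.7 and 90.5), in a region near the end of its 8710-bp model. The region at its start, shared with Hist1h2ac, had 10.4 and 10.5 (76.9 and 79). Hist3h2bb-ps had 12.9 and 12.4. The lowest H2B genes with a region were Hist1h2bf, which shared the region of Hist1h2ad at 4.2 and 3.78, and Hist1h2bb, at 5.53 and 5.25 (40.3 and 42.1).

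H3 and H4 form the tetramer at the centre of the nucleosome. Hist1h3e had the highest signal of the H3 genes, at 18.1 and 19 (percentiles 99.6 and 99.8), in a narrow region of 879 and 897 bp, chr13:23561787-23562665 in replicate 1. Its summit lay 11 bp before the start in replicate 1 and 19 bp before it in replicate 2 (positions -11 and -19). Hist1h3f followed, at 9.76 and 9.61 (73.0 and 74.5), in the region it shares with Hist1h2bh. Hist2h3c2 had 9.18 and 9.63 (69.5 and 74.6), with its start outside the region. The lowest were Hist1h3i, at 3.12 and 2.78 (9.62 and 8.29), and Hist1h3d, at 3.07 and 3.14 (7.87 and 13.7), whose starts both lay in a region. H3 genes thus ran through nearly the whole range of the lists.

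The H4 genes, which encode the tetramer's most conserved subunit, held both the highest and the lowest of the members by strongest region. Hist1h4m had 30.4 and 33.4 (percentile 100 in both) and Hist1h4n had 19.7 and 22.4 (99.9 and 100). Hist1h4j followed, at 12.8 and 12.6 (88.0 and 88.1). The lowest of all members by strongest region was Hist1h4k, at 2.84 and 2.53 (5.05 and 5.26), in a region that ended inside the gene body short of its start. Hist1h4b was next lowest of the H4 genes, at 4.22 and 3.98 (23.9 and 26). In these genes, chosen as the highest and lowest, the 2 replicates lay within 3 percentile points. Other H4 genes differed more between replicates, up to 39.1 and 53.2 at Hist4h4.

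Summits lay upstream of most H2A and H2B starts and at or past most H4 starts. For the 56 members whose start lay in a region, the median summit position was -52.5 bp from the start in replicate 1 and -36.5 bp in replicate 2, where negative values are upstream. In H2A genes the medians were -92.0 and -110 bp, with 14 and 12 of 16 summits upstream. In H2B genes they were -142 and -91.0 bp, with 15 and 14 of 16 upstream. Head-to-head partners share a summit, which lies upstream of both when it falls between their starts. In H3 genes the medians were -9.5 and -11 bp. In H4 genes they were 39.5 and 39.0 bp, with 8 and 9 of 10 summits at or past the start. In the 4 H1 genes they were 435 and 834 bp. For Hist1h1b, a gene of 743 bp, the summit lay 1079 and 973 bp past the start and so beyond the annotated end. For Hist1h1c it lay 731 and 694 bp past the start. For Hist1h1e it lay 139 bp past the start in replicate 1 and 1250 bp past it in replicate 2. For Hist1h1a it stood at -44 bp in both replicates. With 4 to 16 genes per type and shared summits, these positions are a description.

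**Figure D3:**
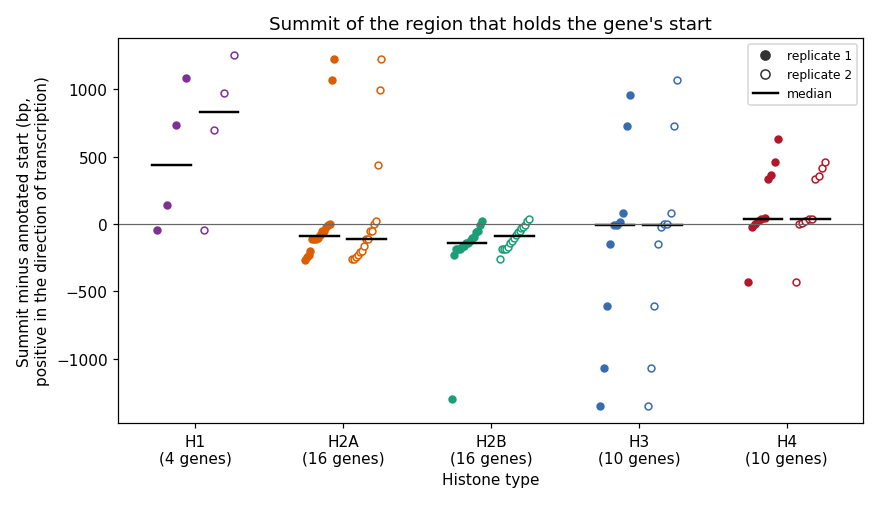
Summit position relative to the annotated start in bp, positive in the direction of transcription, for the 56 histone genes whose start lies in a region, by type, with replicate 1 filled, replicate 2 open and bars at the medians. Most H2A and H2B points lie within 300 bp upstream of the start, most H4 points lie at or above 0, and the H1 medians are 435 and 834 bp.

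The members fell into 4 clusters and 2 lone genes when gaps of over 1 Mb were taken to split them. Hist1 on chromosome 13 formed a left cluster of 24 members (chr13:21715763-22043676) and a right cluster of 31 members (chr13:23531050-23934851), with 1487 kb between them, and Hist1h2al stood alone farther along the chromosome. Hist2 on chromosome 3 held 10 members (chr3:96219865-96270132), Hist3 on chromosome 11 held 3, and Hist4h4 on chromosome 6 stood alone. Counts in both replicates were 21 of 24 members in the left Hist1 cluster (87.5%), 29 of 31 in the right (93.5%), 10 of 10 in Hist2 and 3 of 3 in Hist3. Both lone genes had a region. The share over all protein-coding genes was 70.8%. Starts in a region numbered 17 of 24 (70.8%), 27 of 31 (87.1%), 7 of 10 (70.0%) and 3 of 3 in that order of clusters. For starts the share over all protein-coding genes was 53.4%.

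Regions were densest in Hist2, with 19.9 and 21.9 per 100 kb in replicates 1 and 2, leaving aside the lone genes and Hist3, which had 2 regions in 7.91 kb. The left Hist1 cluster had 11.6 and 13.4 per 100 kb and the right 7.68 and 7.92. The stretch between the Hist1 clusters had 2.15 and 2.62 per 100 kb, close to the 2.53 and 2.87 of the whole genome. In the right cluster, 24 of 31 regions in replicate 1 and 24 of 32 in replicate 2 lay at histone genes. In the left cluster, 13 of 38 and 13 of 44 did, and 16 and 19 lay at tRNA genes. The left cluster consists of blocks of 19 and 5 histone genes with 198 kb between them, and all of its 31 RefSeq tRNA genes lay in that gap. Of these, 21 had a region within 1 kb in both replicates. In the stretch between the Hist1 clusters 39 of 46 tRNA genes did, against 61.8% of all 403 tRNA genes. That stretch also holds 36 Vmn1r genes, which encode vomeronasal receptors, and 0 of these had a region in both replicates, against 70.8% of all protein-coding genes.

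Other protein-coding genes lie inside the Hist1 clusters among the histone genes. A region in both replicates was present at 5 of 9 (55.6%), against 70.8% of all protein-coding genes, and at 3 of 9 among the 50000 strongest regions of each list by signal. The 5 were Zfp184, Pom121l2 and Prss16 in the left Hist1 cluster and Hfe and Slc17a4 in the right. Hfe encodes a regulator of iron uptake. Trim38 and the solute carrier genes Slc17a1, Slc17a2 and Slc17a3 had none. These last 4, and Slc17a4 with its region, lie in the gap between the main block of the right cluster, with 29 members, and its last pair, Hist1h2ba and Hist1h2aa.

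The smaller clusters differed in height. In Hist3 the 3 members had the signals already given for Hist3h2ba, Hist3h2bb-ps and Hist3h2a, from 12.4 to 14.1, all at percentile 87.3 or above. In Hist2 the region over Hist2h2ab, Hist2h2ac and Hist2h2be had 7.67 and 7.43 (59.3 and 60.9). Hist2h4 had 8.85 in both replicates (67.6 and 70.1). The region over Hist2h3b and Hist2h2bb had 8.99 and 9.40 (68.3 and 73.3). Hist2h2aa2 had its strongest region, at 9.18 and 9.63, over the neighbouring Hist2h3c2. A weak second region, at 2.94 and 2.65, lay 133 and 110 bp from Hist2h2aa2. Hist2h3c1 had 4.89 in replicate 1 (32.8) within its gene body, and the region there had 5.34 (43.4) in replicate 2, where the stronger neighbour at 10.9 was counted. The lone genes differed most between replicates after Hist2h3c1. Hist1h2al, a pseudogene, had 5.49 and 8.51 (39.6 and 67.9), and Hist4h4 had 5.49 and 6.46 (39.1 and 53.2).

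**Figure D4:**
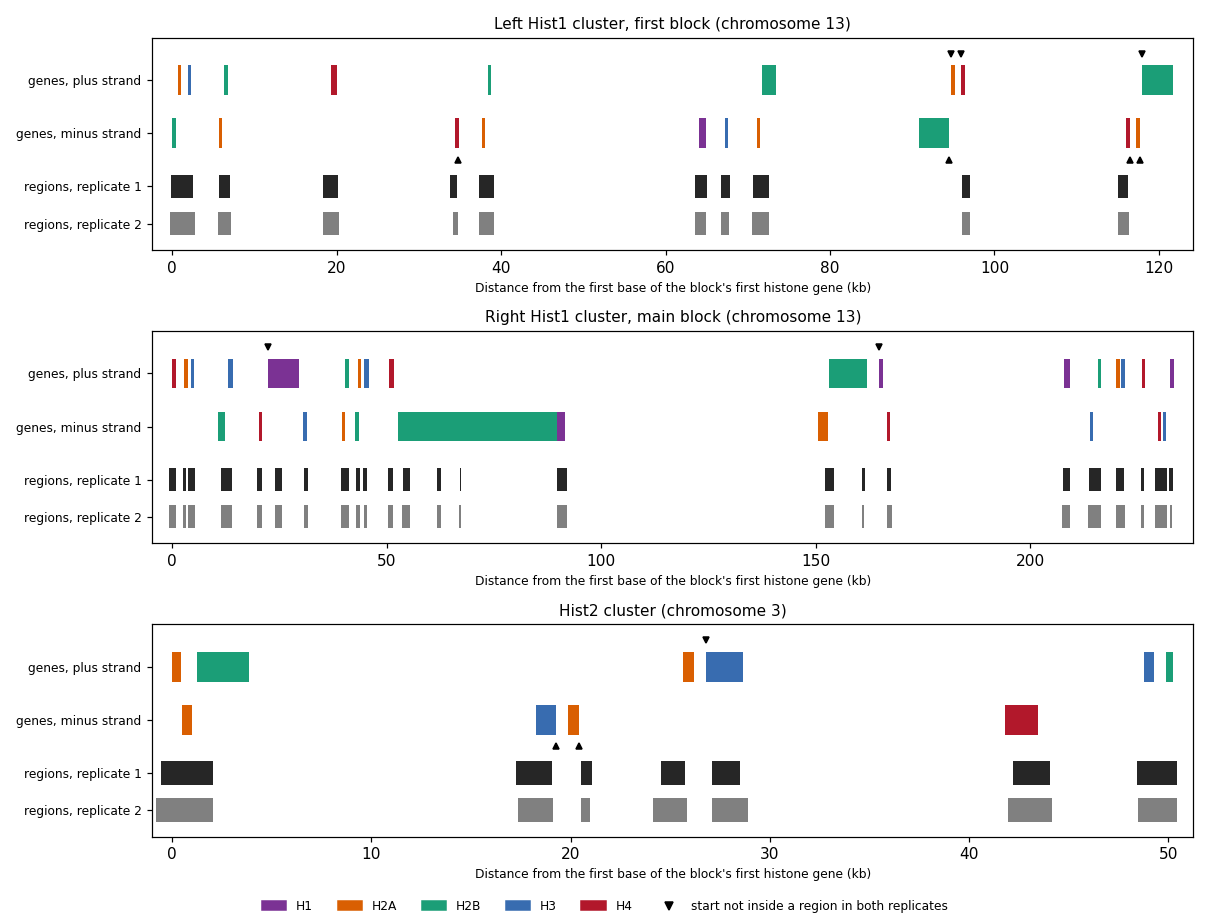
Maps of the first block of the left Hist1 cluster, the main block of the right Hist1 cluster and the Hist2 cluster, with distance in kb from the first histone gene. Genes are coloured by histone type on the plus and minus strands. Regions within 1 kb of a histone gene are drawn to scale for replicate 1 (black) and replicate 2 (grey). Regions farther from histone genes are not drawn, so blank stretches are not free of regions. Triangles mark starts not inside a region in both replicates, and 6 of the 7 in the first block cluster at its right end, in a mirrored pair of 3 genes.

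The members without a region in both replicates numbered 5. Hist1h2bq, Hist1h2br, Hist1h2ba and Hist1h2aa had no region within 1 kb in either replicate, and Hist1h2ap had one in replicate 2 alone. For Hist1h2ap the nearest region lay 1012 bp away in replicate 1 and 945 bp away in replicate 2, just outside and just inside the 1-kb limit. For Hist1h2bq it lay 1594 and 1664 bp away, and for Hist1h2br 1729 and 1662 bp away. Hist1h2ba and Hist1h2aa, the testis H2B and H2A genes, lay 8782 and 8087 bp from the nearest region in replicate 1 and 35003 and 35692 bp in replicate 2. The testis H1 gene Hist1h1t had no region at its start either. The Hist1h2aa window printed above holds CCAAT boxes, TATAAA and an octamer. The CCAAT box stood in all 18 H2A windows, of genes with and without a region.

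The 14 members whose start was not inside a region in both replicates were Hist1h2bq, Hist1h2ao, Hist1h4m, Hist1h4n, Hist1h2ap and Hist1h2br at the right end of the first block, with Hist1h4k in the same block, Hist2h3c2, Hist2h2aa2 and Hist2h3c1 in Hist2, and Hist1h1d, Hist1h1t, Hist1h2ba and Hist1h2aa in the right Hist1 cluster. Several of them lie in duplicated DNA. Over the bases that their promoter windows could be aligned on, Hist1h2ao and Hist1h2ap were identical at 200 of 200, Hist1h4m and Hist1h4n at 298 of 299 (99.67%), Hist2h3c1 and Hist2h3c2 at 284 of 285 (99.65%), and Hist2h2aa1 and Hist2h2aa2 at 249 of 260 (95.77%).

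Copied sequence was therefore measured around each start, as the percent of 50-base words within 1 kb to either side that occur a further time in the genome on either strand. At 10 members it was 50% or more, and 9 of these had no start in a region in both replicates. Hist1h2bq, Hist1h2ao, Hist1h2ap and Hist1h2br stood at 100%, Hist1h4m at 93%, Hist1h4n at 92.0%, Hist2h3c1 at 78.5%, Hist2h3c2 at 77.6% and Hist2h2aa2 at 57.2%. The exception was Hist2h2aa1, at 54.4%, whose start lay in a region. Among the 60 members under 50%, 55 had their start in a region and 5 did not, namely Hist1h4k at 13.9%, Hist1h2ba and Hist1h2aa at 7.07%, and Hist1h1d and Hist1h1t at 0%. The median was 20.5% over members, against 0% over 2188 other protein-coding genes, of which 5.9% reached 50%. With 100-base words, 9 members reached 50% and 0 of these had their start in a region. The labels do not state read length or how reads with several matching places were handled, and the part of copied sequence in the missing regions was not tested. The testis genes Hist1h2ba, Hist1h2aa and Hist1h1t had no region at their start with 7.07% copied words or fewer.

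**Figure D5:**
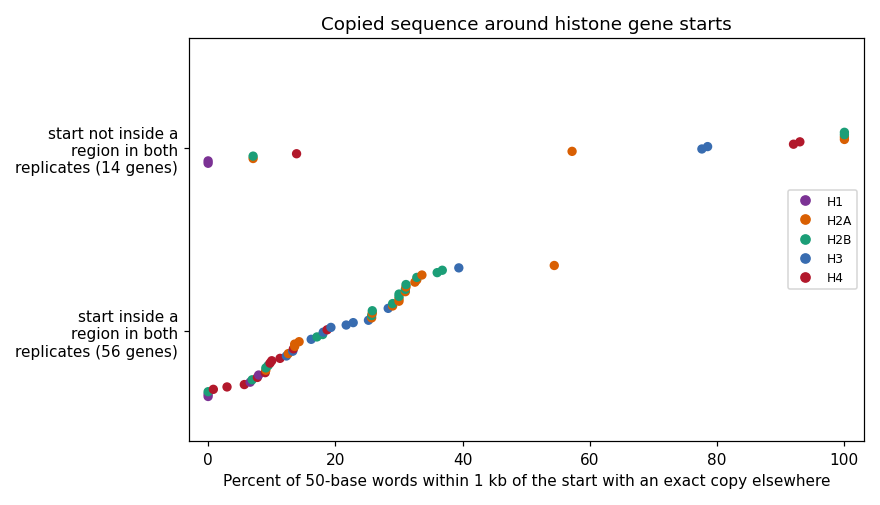
Percent of 50-base words within 1 kb of the start with an exact copy elsewhere, 1 point per histone gene, for the 14 genes whose start is not inside a region in both replicates (top) and the 56 whose start is (bottom). In the top row 9 genes lie at 57.2% or above and 5 at 13.9% or below, and in the bottom row only Hist2h2aa1 lies above 50%.

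The strongest regions of the whole set lay inside this duplicated stretch. The region over Hist1h4m, chr13:21811791-21812823 in replicate 1, and the region over its twin Hist1h4n, chr13:21830732-21832014, had their summits 659 bp past the start of their gene in replicate 1 and 660 and 659 bp past it in replicate 2, beyond the end of genes of 402 and 430 bp. Neither region reached the start, which in Hist1h4m lies in the window printed above. Over the whole region, 91.2% of 50-base words at Hist1h4m and 78.8% at Hist1h4n in replicate 1 had a copy elsewhere, and 90.4% and 79.9% in replicate 2. Within 100 bp of the summit, 70.4% of 50-base words at Hist1h4m and 71.1% at Hist1h4n did, and 5.88% and 7.84% of 100-base words. Signal was 30.4 and 33.4 at Hist1h4m, against 19.7 and 22.4 at Hist1h4n, so the twins were not at the same height. Whether these regions belong to the H4 genes or to other DNA past their ends was not tested.

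Genes that serve histone supply were open without exception in a list of 42, against 70.8% of all protein-coding genes. All 42 had a region within 1 kb in both replicates. In 38 the start lay in a region in both, against 53.4% of all protein-coding genes. The median signal percentile of their strongest region was 89.2 and 88.8, which is above the medians of 55.8 and 61.3 over the histone genes' strongest regions. Over regions holding any protein-coding start the medians were 82.4 and 83.4. A gene with several regions has more to take the strongest from, and Cabin1, for example, had 7 and 8. By -log10 q the medians were close, at 95.4 and 96 for the 42 genes, against 94 and 95.3 for the histone genes. By role, the medians of the signal percentile were 87.7 and 87.6 for the 13 genes of transcription, 88.4 and 87.6 for the 13 of 3′ processing and stability, and 90.4 and 89.9 for the 16 chaperone and import genes. The highest were Hinfp (99.6 and 99.4), which encodes the H4 promoter factor, Lsm10 (99.1 and 99.4), a subunit of the U7 particle that trims histone transcripts, and Casp8ap2 (98.7 and 99.2), which encodes FLASH. Npat stood at 93.5 and 94.7 and Slbp at 87.7 and 87.6, named after their values were seen.

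Histone genes expressed outside S phase were split by tissue of use. Of 17, 12 had a region in both replicates (70.6%), against 70.8% of all protein-coding genes, made up of 11 of 11 somatic genes and 1 of 6 germ line genes. The highest were H2afv (98.9 and 98.3), an H2A.Z gene, Cenpa (94.8 and 96.2), the centromeric H3, and H3f3b (86.2 and 89.1), an H3.3 gene. H1foo, the oocyte H1, was the germ line gene with a region (80.6 and 76.1), though not at its start. The germ line genes H1fnt, Hils1, H2afb1, H2afb3 and H2al2a had none. The median percentile over the 12 was 77.2 and 76.5, against 55.8 and 61.3 over the replication-dependent genes, all values being signal percentiles of the strongest region within 1 kb. By -log10 q the order turned, with medians of 93.1 and 93.5 over the 12, against 94 and 95.3 over the replication-dependent genes.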

How the data were processed

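ATAC-seq regions of 2 libraries of mouse regulatory T cells were analysed as deposited. Each list is in narrowPeak form on mm10 and was derived from the alignments of its own library, not from pooled reads, per the deposited text file. The aligner, the peak caller and their versions, the shift for transposase insertion, read length and depth are not given in these sources, and the entry names hold the words masked and dedup. The authors deposited for each region a signal of unstated scale, a -log10 p and a -log10 q, the summit's offset, and a score that was not used here. These values are the authors' own, and served only to describe, rank or filter regions within a list.

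From these, regions on chromosomes 1 to 19, X and Y were set against GENCODE M21 genes. A gene was called where a region came within 1 kb of the gene body, and a start where it lay inside a region, in both replicates, and a percentile is a region's rank within its list. A member was described by its strongest region within 1 kb. Members of 1 chromosome with gaps of at most 1 Mb form a cluster, and blocks split at gaps over 100 kb. With 1 group and 2 libraries, no test was made, and members were described beside all protein-coding genes. Promoters came from RefSeq and sequence from GRCm38.p6. Exact copies of 50-base and 100-base words were counted over the genome, with every 10th other protein-coding gene beside them, in a procedure that was tested on simulated data.

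Members and gene lists were chosen with earlier results of these data known. Genes were named by rule: all H1 genes, all members outside the left and right Hist1 clusters, and members lacking a region in a replicate. The rule also took the 3 highest and 2 lowest H2A, H2B, H3 and H4 genes by mean signal percentile. It further took head-to-head pairs not joined and, of each list, the genes not called and the 3 highest. Members named otherwise share a region or stretch with these, lack a region at their start or lack a stem-loop, and were named after their values were seen, as were the other genes in the clusters. 1 marker gene is not reported here. Tools were python 3.11.15, pandas 2.3.3, numpy 2.4.6, numba 0.67.0 and matplotlib 3.10.9.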

Additional observations from a re-analysis of the deposited data

How the results depend on the processing

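No paired analysis was possible because the libraries form 1 group, so no second group shares their replicate numbers. Of 72 recomputed counts and medians, 69 stayed within 1.5 times the reported count or, for the median percentile, 1 SD between replicates. This limit is wide, since many counts stood too near their totals to rise 1.5 times. A fall from 92.9% to 77.1% of members with a region, or from 80.0% to 62.9% of starts, stayed within it. The 3 that moved were these. With the 50000 strongest regions of each list by signal, 3 of 9 other protein-coding genes in the clusters had a region, against 5, and the median signal percentile of regions at histone genes was 63.8, against 53.0 ± 4.38 (SD, n = 2 replicates). With regions ranked by -log10 q that median was 92.0. Counts of histone genes with a region ran from 54 of 70 (77.1%, 50000 strongest by signal) to 68 of 70 (97.1%, 5 kb to either side). The shares of all protein-coding genes at these settings were 66.8% and 74.2%. With replicate 1 left out the count was 66, against 72.4% of all protein-coding genes, and with replicate 2 left out 65, against 71.3%. Starts inside a region ran from 44 (50000 strongest by signal) to 62 of 70 (within 1 kb of the start). The share over all protein-coding starts, 53.4% in the main setting, was not recomputed at these settings. H4 genes had 8 of 13, against 13, with the 50000 strongest by signal. Without members at 50% copied words or more, added after the data were seen, 58 of 60 (96.7%) had a region and 55 of 60 (91.7%) a start in it. Depth is unknown, so an absent region means not called in these lists, not closed chromatin.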

Other observations

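Some region edges fell on the same base in both replicates. Of the 96 edges of regions at histone genes that overlapped a region of the other replicate, 12 (12.5%) did so, against 4.8% of 128344 edges in replicate 1 and 4.82% of 127654 in replicate 2. The region at Hist1h3e and the region at Hist1h4n, for example, each began at the same base in both replicates. These genes were named after their values were seen, and what sets the edges was not tested.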
